A study of Mus musculus with 8 samples.

Results

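Alveolar type 1 epithelial cells are described here from 81 of the 11806 cells in a table of single-cell RNA counts from neonatal mouse lung. A cell was a member if it held at least 3 molecules of Rtkn2, 0 of Ptprc (the leukocyte surface protein CD45), fewer than 10 of Dppa5a (a gene of pluripotent cells), and under 3% of its molecules from Sftpc (surfactant protein C). Each molecule was counted by its unique molecular identifier (UMI), a tag that removes amplification copies. Of the 124 cells with at least 3 Rtkn2 UMIs, 94 had no Ptprc UMI, 87 of those had fewer than 10 Dppa5a UMIs, and 81 of those were under the Sftpc limit. The members made up 0.686% of all cells (exact binomial 95% interval 0.545 to 0.852). Members were chosen on measured transcripts of the same cells, so every ratio below is a description of the chosen cells, with no test.

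Type 1 cells are the very thin, wide squamous cells that line most of the gas exchange surface of the lung. They share a fused basement membrane with the capillaries beneath them, across which oxygen passes. Cuboidal alveolar type 2 cells, which lie between them, make and store surfactant and can give rise to type 1 cells. Besides forming the barrier, type 1 cells move ions and water, and they send growth and guidance signals to vessels and mesenchyme while alveoli form after birth. AGER is a surface receptor abundant on type 1 cells, HOPX a homeodomain cofactor and AKAP5 an anchoring protein for protein kinase A.

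The lungs came from 5-day-old C57BL6/J pups, labelled WT in both groups. Per the labels, every pup had met lipopolysaccharide, a bacterial cell wall component, before birth on gestation day 14, so no group was free of it. After birth, 4 libraries came from pups in air at 21% oxygen, labelled healthy, and 4 from pups in hyperoxia at 65% oxygen, labelled as the bronchopulmonary dysplasia (BPD) model of chronic lung disease after preterm birth. Lungs were cryopreserved, thawed, and sorted for endothelial, epithelial and immune cells, so the share of type 1 cells is a share of sorted, surviving cells and not of the lung. The count table has no key from cells to libraries: 0 of the 8 library labels matched a column name. Hyperoxia and air were therefore not compared, and the values describe cells of both groups together, as 1 pooled sample. Cell barcodes lay in 8 alphabetical runs, which are used below only to show how values spread. No run was tied to an oxygen group, and a run is not a known replicate.

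The members held 536670 UMIs, with 1691, 5834 and 31664 in the lowest, median and highest cell, and a median of 2376 detected genes. They were set against all 11725 other cells, against the 737 cells with at least 3% of UMIs from Sftpc (called Sftpc cells, median 4612 UMIs), and against 444 endothelial cells (at least 2 UMIs of Cdh5, an endothelial cadherin, with the other 3 terms as for the members, median 2763 UMIs). No Ptprc limit was set for the Sftpc cells, and 74 of them held at least 1 Ptprc UMI. Levels are in CPM, the UMIs of a gene summed over a group and scaled to a common total of 1000000, and ratios are ratios of these levels. Intervals are exact 95% intervals that cover counting error only, not the spread between animals. Of 12 barcodes found in more than 1 column, 0 belonged to a member.

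The label was checked against its markers. Ager had 5678 CPM (95% interval 5478 to 5883) in the members, 708 in the Sftpc cells, 16.4 in the endothelial cells and 58.1 in all other cells. Hopx had 1932 CPM in the members against 42.7 in the Sftpc cells, and Akap5 had 1774 against 35.5. Rtkn2 itself, which chose the cells, had 2976 CPM in the members and 22.1 in the Sftpc cells. At least 1 UMI of Ager was found in 77 members, of Hopx in 77 and of Akap5 in 74, and 74 members held all 3. Ager ran from 0 to 121 UMIs per cell with a median of 31, Hopx from 0 to 56 UMIs per cell with a median of 11 and Akap5 from 0 to 62 UMIs per cell with a median of 8. By these markers the label holds for most of the 81 cells.

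A few members sit apart from the label. Ager, Hopx and Akap5 were all at 0 in 3 members. The first, in run 4, was the deepest member with 31664 UMIs, 3 of them Rtkn2 and 5 Pecam1, an endothelial and leukocyte adhesion gene. The second, also in run 4, had 8143 UMIs and 4 of Rtkn2. The first and second were also the only 2 of the 14 members outside runs 1 and 6 with UMIs of a list of 6 pluripotent markers. These made up at most 0.0614% of a cell's UMIs and summed to 210 CPM over the 14. With Ager, Hopx and Akap5 at 0, only Rtkn2 among the 4 markers gives their label support. The third, in run 6, had 1691 UMIs with 7 of Lyz2, a lysozyme gene of macrophages and type 2 cells. It also held 3 UMIs of Tyrobp, a leukocyte gene, and 0 of Sftpc and Sftpb, so its markers go against the label. The first and second, called the 2 unmarked cells below, held 39807 of the 99982 UMIs of the 14 members outside runs 1 and 6. The level of a gene in those runs is therefore also given without them where they move it by over 1.5 times, so for example Sema3a, a secreted guidance cue, had 970.2 CPM there with them and 1612 without. Leaving all 3 out is given as an alternative in the closing section, and no cell was removed from the values unless stated. Sftpc was at 0 in 33 members. The members with most Sftpc held 240 UMIs (run 6, with 42 of Sftpb) and 216 UMIs (run 7, with 36 of Sftpb). The run 6 member had 14 UMIs of Rtkn2, 9 of Ager, 4 of Hopx and 3 of Akap5. The run 7 member had 3 of Rtkn2, 2 of Ager and 0 of Hopx and Akap5 in 8684 UMIs, so its markers give the label little support.

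**Figure D1:**
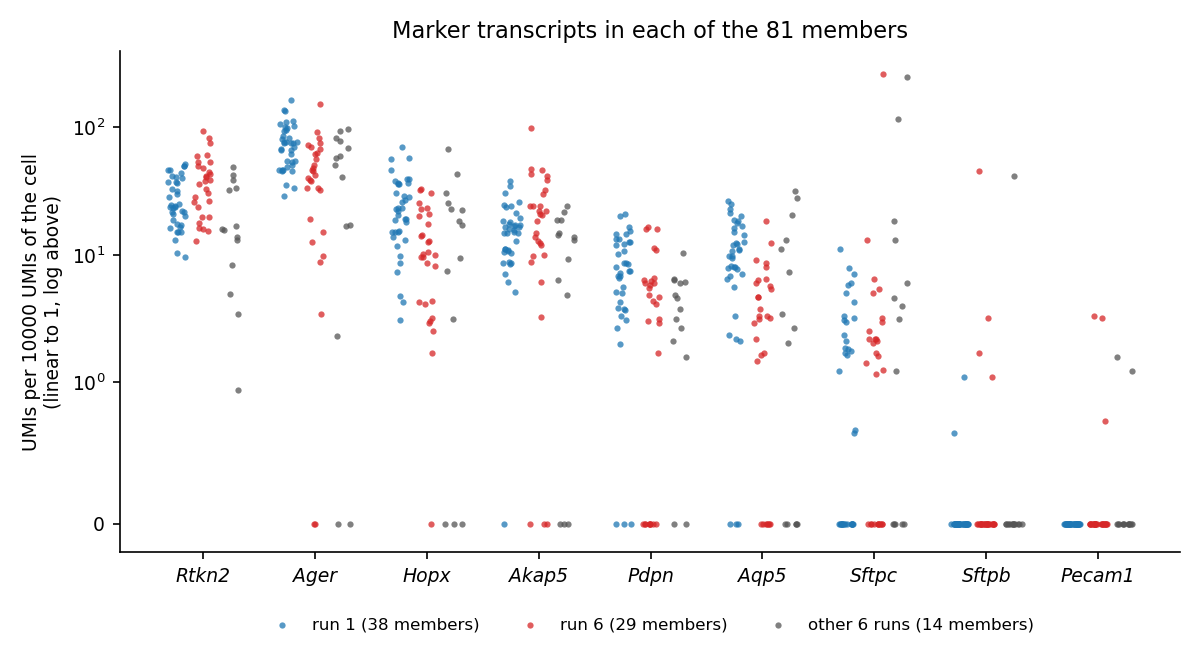
UMIs per 10000 UMIs of the cell (vertical axis, linear to 1 and logarithmic above) for 9 genes in each of the 81 members, coloured by run of barcodes, each point a cell. Ager lies above 20 per 10000 in all but 13 members, while Sftpb and Pecam1 are at 0 in most members.

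Cells just inside and just outside the limits show how sharp each limit is. The 4 members with exactly 3 Rtkn2 UMIs had 205 CPM of Ager, whereas the 6 with exactly 4 had 4904. The 205 CPM is weighted by the deepest member, which has 31664 UMIs and 0 of Ager. Of the others, 1 was the run 6 member with 1691 UMIs and 0 of Ager, and 1 the run 7 member with 216 Sftpc UMIs. The last, with 1847 UMIs, held 7 of Ager, 6 of Hopx and 6 of Akap5. Outside, 6 cells with 2 Rtkn2 UMIs and the other terms met had 960 CPM of Ager and 508 of Pecam1. The Ptprc limit alone took out 29 cells that met the other 3 terms: the 7 with a single Ptprc UMI had 4220 CPM of Ager and 178 of Tyrobp (a leukocyte signalling adaptor), and the 22 with more had 1320 CPM of Ager and 667 of Tyrobp. The Sftpc limit alone took out 6 cells: 2 between 3% and 10% of UMIs had 1953 CPM of Ager, and 4 at 10% or more had 1274. The 3 members between 1% and 3% Sftpc had 2048 CPM of Ager. The Dppa5a limit alone took out 7 cells, with a median of 23434 UMIs. They had 210 CPM of Ager, 204 of Rtkn2 and 125 of Pecam1, and 2 of them held all of Ager, Hopx and Akap5. The deepest member, inside this limit, is likewise deep and low in Ager. Ager on its own does not separate the members, since 110 other cells had at least 10 Ager UMIs and 97 of these were Sftpc cells. With every cell thinned to 1500 UMIs, an Ager UMI was found in 92.6% of the members, 57.9% of the Sftpc cells and 1.02% of the endothelial cells.

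Most markers of other cell types had low levels in the members, with exceptions. The limit of 0 Ptprc UMIs itself keeps out leukocytes, so low leukocyte markers are no separate support for the label. A count of 0 in the members allows up to 5.59 CPM. The summed level of 14 endothelial markers was 139.8 CPM in the members, 114 in the Sftpc cells and 12894 in the endothelial cells. Of the 14, 6 (Tie1, Egfl7, Ramp2, Emcn, Car4 and Plvap) were at 0 in the members. Of 10 lymphocyte markers 9 were at 0, of 12 fibroblast and muscle markers 8, and of 7 ciliated cell markers 5. The 6 pluripotent markers, of which the rule limits Dppa5a, were found in 8 members and summed to 65.2 CPM. They summed to 69.1 CPM in the Sftpc cells, 21.1 in the endothelial cells and 765 in all other cells. In 1 run 6 member they made up 0.29% of its UMIs. The level of Dppa5a moved by over 1.5 times without the 3 members lacking Ager, Hopx and Akap5, and also without run 1 or run 6. Neutrophil markers summed to 89.4 CPM, led by S100a8 at 39.1 and S100a9 at 41. In all other cells S100a8 had 3598 CPM, and the level of free RNA in the members was not measured. Macrophage and monocyte markers summed to 329.8 CPM, of which Lyz2 gave 168 (92.5 without the 2 members with most Sftpc) and Csf1r 76.4. In the endothelial cells, under the same Ptprc limit, these markers summed to 129 CPM. Scrublet, a doublet caller, marked 0 members among the 193 cells with the highest scores. It marked 26 Sftpc cells and 2 endothelial cells.

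The members were spread unevenly over the runs. Run 1 held 38 of them, or 2.42% of its cells (1.72 to 3.31), and run 6 held 29, or 1.69% (1.14 to 2.42). The other 6 runs held 14 members together, between 0.0530% and 0.355% of their cells. Sftpc cells were not spread the same way: run 1 held 56 and run 6 held 155, while run 7, with 6 members, held 202, and run 4, with 4 members, held 149. Because runs 1 and 6 together hold 67 of the 81 members, the pooled values mostly describe those 2 runs. Sorting, survival of the freeze and the thaw, and the number of type 1 cells in the lung cannot be told apart in these shares.

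Across the table, 1057 of the 6934 genes with at least 20 CPM in the members were at least 4-fold higher than in all other cells, which is 15.2%, and 1083 of 6688 with at least 20 CPM in the other cells were at least 4-fold lower, which is 16.2%. Against the Sftpc cells, 665 of 6934 were at least 4-fold higher (9.59%) and 406 of 6130 at least 4-fold lower (6.62%). Against the endothelial cells, 785 of 6934 were at least 4-fold higher (11.3%) and 978 of 7156 at least 4-fold lower (13.7%). Sftpc alone, which chose both groups, had 132017 CPM in the Sftpc cells and 1111 in the members. The median gene with at least 20 CPM in both groups was 1.29 times as high in the members. With that median set to 1, the split against the Sftpc cells became 493 higher and 522 lower. Ratios to the Sftpc cells are best read against that 1.29.

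Among the 30 genes with the largest ratios to all other cells, the first was Wnt3a, a Wnt ligand, at 147 CPM in the members and 0.379 in the other cells, a ratio of 388-fold (251 to 616). Next were Scnn1g, the gamma subunit of the epithelial sodium channel, at 383-fold (301 to 489), and Col4a3, a type IV collagen chain, at 352-fold (316 to 393). Sema3a followed at 341-fold (308 to 379.6), ahead of Rtkn2 and Col4a4. Itgb6, the integrin chain that with alpha v activates latent TGF-beta, had 249.8-fold (209.5 to 298), and Spock2, a proteoglycan of the matrix, 229-fold (196 to 268). Others among the first 30 were Ndnf, a secreted neurotrophic and vascular factor, at 1847 CPM, F3, tissue factor, which starts coagulation, at 268, and Ano1, a calcium-activated chloride channel, at 652. All 30 were at least 96.9-fold higher than in the other cells and were higher in both run 1 and run 6, as the choice of genes required.

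**Figure D2:**
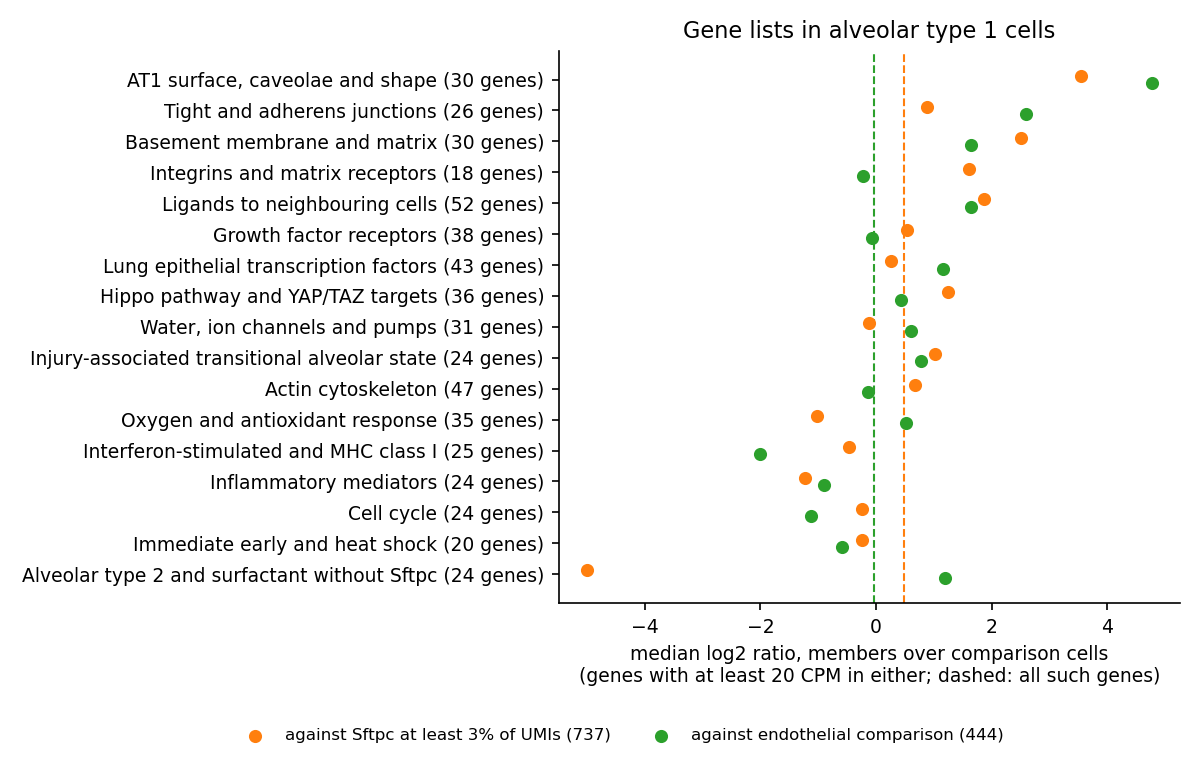
Median log2 ratio of the members to the Sftpc cells and to the endothelial cells (horizontal axis) for 17 gene lists, over the genes of each list with at least 20 CPM in either group, with dashed lines at the medians over all such genes (0.48 and -0.04). The list of surface, caveolar and shape genes lies to the right of both lines, and the surfactant list, drawn without Sftpc, lies far to the left against the Sftpc cells.

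Genes of the surface, the caveolae and the flat shape were at least 4-fold higher in the members than in the Sftpc cells in 25 of 29 cases with at least 20 CPM in the members, beside 9.59% of all genes, with a median log2 ratio of 3.55 beside 0.48 for all genes. The list was built from known type 1 genes. Lmo7, which links actin to cell junctions, had 3198 CPM, with 3389.6 CPM in run 1, 3590.3 in run 6 and 1970.3 in the other 6 runs together (3108 without the 2 unmarked cells), against 176 in the Sftpc cells. Limch1, an activator of non-muscle myosin, had 3199 against 201. Emp2, a tetraspan membrane protein, had 2049.7 CPM against 255, and Clic5, which joins the membrane to the actin cortex, had 1698 against 40.5. These genes were found in nearly all members: Lmo7 in 78, Emp2 in 77 and Clic5 in 76 of 81. Pdpn, podoplanin, had 622 CPM against 19.8, a ratio of 31.5-fold (25.1 to 39.7), and Aqp5, a water channel, 798 against 99.9. Aqp5 had 1163 CPM in run 1, 455 in run 6 and 570.1 in the other 6 runs together (947 without the 2 unmarked cells), and 494 CPM in the members without run 1. Igfbp2, a binding protein of insulin-like growth factors known from mature type 1 cells, had 376 CPM against 5.48 in the Sftpc cells, and ran from 0 to 24 UMIs per cell with a median of 1. It had a UMI in 42 of the 81 members. Igfbp2 had 439.6 CPM in run 1, 259 in run 6 and 450.1 in the other 6 runs together.

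The caveolar genes were shared with the endothelial cells on the other side of the barrier. Caveolae are small pits of the cell membrane, built by caveolins and held in shape by cavins. Cav1 had 302 CPM in the members, 627 in the endothelial cells and 6.86 in the Sftpc cells. Cavin2 had 367, 756 and 10.6 CPM in the same order, and Cavin1 had 237, 366 and 45. For all 3 the members lay below the endothelial cells and above the Sftpc cells, and the ratio to the endothelial cells was 0.481-fold (0.406 to 0.568) for Cav1, 0.486-fold (0.416 to 0.565) for Cavin2 and 0.646-fold (0.530 to 0.783) for Cavin1. With cells thinned to 1500 UMIs, a Cav1 UMI was found in 33.3% of the members, 0.983% of the Sftpc cells and 54.2% of the endothelial cells. Aqp1, a water channel better known from capillaries, had 632 CPM in the members, 536 in the endothelial cells and 10.4 in the Sftpc cells. It had 883 CPM in run 1, 435 in run 6 and 400.1 in the other 6 runs together (665 without the 2 unmarked cells) and a UMI in 65 members. Pmp22, a tetraspan membrane protein, showed the same order with 583, 477 and 8.23 CPM.

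Among genes of the basement membrane and matrix, 15 of 23 with at least 20 CPM in the members were at least 4-fold higher than in the Sftpc cells and 2 of 22 at least 4-fold lower, beside 9.59% and 6.62% of all genes, with a median log2 ratio of 2.51. Type IV collagen is the network of the basement membrane and is built from chains that assemble in fixed trimers, alpha 1 with alpha 2, or alpha 3 with alpha 4 and alpha 5. Col4a3 had 2132 CPM in the members, with 2338 CPM in run 1, 2344 in run 6 and 1220.2 in the other 6 runs together (2027 without the 2 unmarked cells), and ran from 0 to 52 UMIs per cell with a median of 11. In the Sftpc cells it had 27.6 CPM, in the endothelial cells 1.75. The ratio to the Sftpc cells was 77.2-fold (64.7 to 92.6). Col4a4 had 2502 CPM, with 2732 CPM in run 1, 2851 in run 6 and 1270.2 in the other 6 runs together (2111 without the 2 unmarked cells), against 39.4 in the Sftpc cells and 4.09 in the endothelial cells. Col4a5, the partner of both, had 591 against 104 and 12.9. The alpha 1 and alpha 2 chains ran the other way between the 2 sides of the barrier: Col4a1 had 712 CPM in the members and 1542 in the endothelial cells, and Col4a2 had 544 and 1110.1.

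Col4a3 and Col4a4, which were high in the same cells, are neighbours that are read away from each other from starts 72 bases apart. In the GENCODE annotation of GRCm38.p6, Col4a4 lies on the minus strand at chr1:82448423-82586849 and Col4a3 on the plus strand at chr1:82586921-82722059. The 71 bases between the starts, chr1:82586850-82586920, are shown because both genes start at its edges. They are on the plus strand, 5′ to 3′, with no base singled out in capitals, and their G and C content is 69.0%. Over all promoter windows, from 250 bases before to 50 after each start, the median was 52.7%.
Between the starts of Col4a4 and Col4a3: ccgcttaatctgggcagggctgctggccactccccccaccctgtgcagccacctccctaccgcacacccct
Each of the 2 genes had a UMI in most members, Col4a3 in 76 and Col4a4 in 78 of 81, and in 8.41% and 14.9% of the Sftpc cells. No binding or accessibility data for this stretch were analysed here.

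Laminins, the other network of the basement membrane, differed by chain. Lama3, an alpha chain of epithelial laminin, had 928 CPM against 52.9 in the Sftpc cells, and Lamb3, a beta chain of epithelial laminin, had 235 against 91.3. Lamb1 was at 0 in the members and at 51.3 CPM in the Sftpc cells. Nid1 and Nid2, the nidogens that link laminin to collagen IV, had 5.59 CPM each in the members, all from 1 cell in each case, against 323 and 49.7 in the endothelial cells. Agrn and Hspg2, the heparan sulfate proteoglycans agrin and perlecan, were at 358 and 404 CPM in the members against 29.6 and 27.6 in the Sftpc cells. Npnt, nephronectin, a ligand of integrin alpha 8, had 811 CPM against 153. Sparc, a collagen-binding matrix protein, had 2577 against 315. Eln, elastin, stood at 3.73 CPM in the members, 29.8 in the Sftpc cells and 1925 in the endothelial cells. The Eln value rests on 2 members, and its direction against the Sftpc cells turned in run 6 alone, without run 7, and with an Rtkn2 limit of 2 UMIs.

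**Figure D3:**
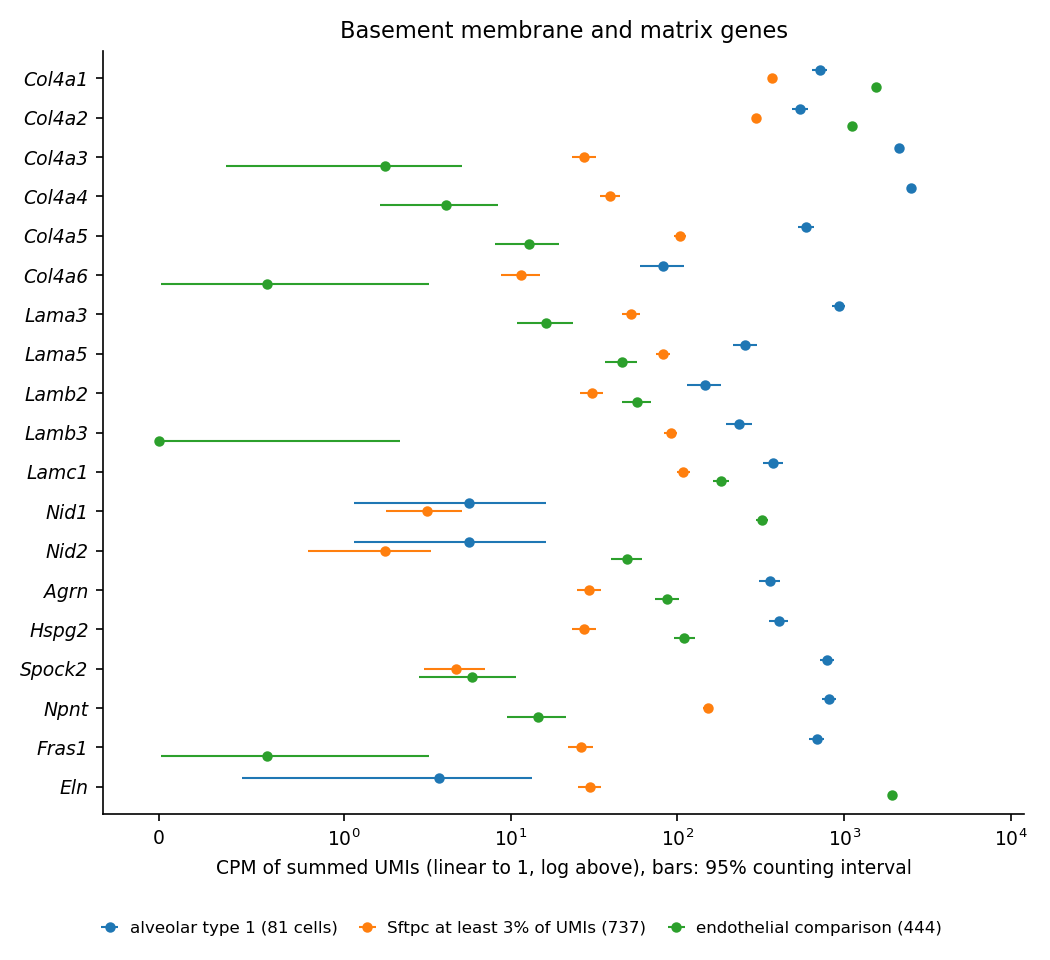
Levels of 19 basement membrane and matrix genes in CPM of summed UMIs (horizontal axis, linear to 1 and logarithmic above) in the members, the Sftpc cells and the endothelial cells, with bars for the 95% counting interval. Col4a3 (2132 CPM) and Col4a4 (2502 CPM) are far higher in the members than in the other 2 groups, whereas Col4a1, Col4a2 and Eln are highest in the endothelial cells.

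Of the integrins and matrix receptors, 5 of 12 were at least 4-fold higher in the members than in the Sftpc cells and 0 of 9 at least 4-fold lower, beside 9.59% and 6.62% of all genes. Itgb6 had 659.6 CPM, with 768 CPM in run 1, 616 in run 6 and 480.1 in the other 6 runs together (798 without the 2 unmarked cells), against 16.6 in the Sftpc cells and 0.585 in the endothelial cells, and a UMI in 73 members. Its partner Itgav had 95 CPM in the members and 97.9 in the Sftpc cells. Itga3, a laminin receptor chain, had 214 CPM against 31.5. Dag1, dystroglycan, which binds laminin and agrin, had 1086 against 254. Sdc4, a heparan sulfate syndecan, went the other way with 209 CPM against 566.

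Of the junction genes, 13 of 21 were at least 4-fold higher and 2 of 12 at least 4-fold lower in the members than in the endothelial cells, beside 11.3% and 13.7% of all genes. Against the Sftpc cells the counts were 4 of 21 and 1 of 20, beside 9.59% and 6.62%. Cldn18, the claudin that seals the alveolar epithelium, had 2989 CPM in the members, 819 in the Sftpc cells and 19.3 in the endothelial cells. Cdh1 (E-cadherin) had 361 CPM in the members and 258 in the Sftpc cells, and Epcam 216 and 218. Ocln, occludin, had 306 against 47.4, and Pard6b, of the polarity complex, 249.7 against 23.1. Cldn3 was lower, at 201 against 376. Cldn5, the endothelial claudin, had 1.86 CPM in the members and 2132 in the endothelial cells.

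Many genes of signals to neighbouring cells were high in the members. Of the ligand genes with at least 20 CPM in the members, 21 of 25 were at least 4-fold higher than in all other cells and 14 of 25 than in the Sftpc cells, beside 15.2% and 9.59% of all genes, with median log2 ratios of 4.63 and 1.87 beside 0.26 and 0.48 for all genes. Other ligands were lower: 5 of 21 were at least 4-fold lower than in the Sftpc cells, beside 6.62% of all genes, and 9 of 24 than in the endothelial cells, beside 13.7%. The first of these counts was 3 of 21 both without run 1 and without run 6. Vegfa, the growth factor of endothelial cells, had 1683 CPM (95% interval 1575 to 1796) in the members, with 2067 CPM in run 1, 1376 in run 6 and 1340.2 in the other 6 runs together (2077 without the 2 unmarked cells). In the Sftpc cells it had 101 CPM and in the endothelial cells 105, and the ratio to the Sftpc cells was 16.7-fold (15 to 18.6). Its receptors Kdr and Flt1 had 0 UMIs in the members, where a count of 0 enters a ratio at 5.59 CPM, and 934 and 907 CPM in the endothelial cells. Vegfa ran from 0 to 54 UMIs per cell with a median of 8.

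The class 3 semaphorins are secreted cues that steer axons and vessels. Sema3e had 2417 CPM in the members, with 2305 CPM in run 1, 3021 in run 6 and 1520.3 in the other 6 runs together (2526 without the 2 unmarked cells), 58.4 in the Sftpc cells and 2.92 in the endothelial cells. Plxnd1, the receptor of Sema3e, had 1.86 CPM in the members and 177 in the endothelial cells. Sema3a had 2255 CPM, with 2519 CPM in run 1, 2587 in run 6 and 970.2 in the other 6 runs together (1612 without the 2 unmarked cells), against 42.5 and 15.8, and Nrp1, a receptor of Sema3a and of VEGF-A, had 171 CPM in the members, 519 in the Sftpc cells and 1077 in the endothelial cells. Sema3f and Sema3c were instead higher in the endothelial cells, at 190.1 and 341 CPM against 35.4 and 33.5 in the members. Sema3a and Sema3e both lie on chromosome 5, Sema3a at chr5:13125414-13602565 and Sema3e at chr5:14025276-14256689.

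Ligands of mesenchymal growth and Wnt and hedgehog ligands were also found in the members. Pdgfa, which acts on the fibroblasts that form alveolar septa, had 615 CPM against 73.3 in the Sftpc cells, a ratio of 8.39-fold (7.22 to 9.76), and its level was 707 CPM in run 1, 589.8 in run 6 and 440.1 in the other 6 runs together. Shh had 229 CPM against 21.9, and its receptor Ptch1 had 143 against 33.3. Wnt3a had a UMI in 46 of 81 members and in 0.814% of the Sftpc cells, with 168 CPM in run 1, 145 in run 6 and 100.02 in the other 6 runs together (166 without the 2 unmarked cells). Wnt7a had 65.2 CPM against 2.94, Fgf18 59.6 against 0.979, and Tgfb2 307 against 9.40. With the same depth of 1500 UMIs per cell, a Wnt3a UMI was found in 17.3% of the members, 0.281% of the Sftpc cells and 0% of the endothelial cells (exact upper bound 0.939%). Some ligands were higher in the Sftpc cells. Il33, an alarmin that acts on type 2 immune cells, had 234 CPM in the Sftpc cells and 1.86 in the members, a log2 ratio of -6.97 (-12.28 to -4.49). Areg, amphiregulin, had 197 CPM in the Sftpc cells and 18.6 in the members.

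**Figure D4:**
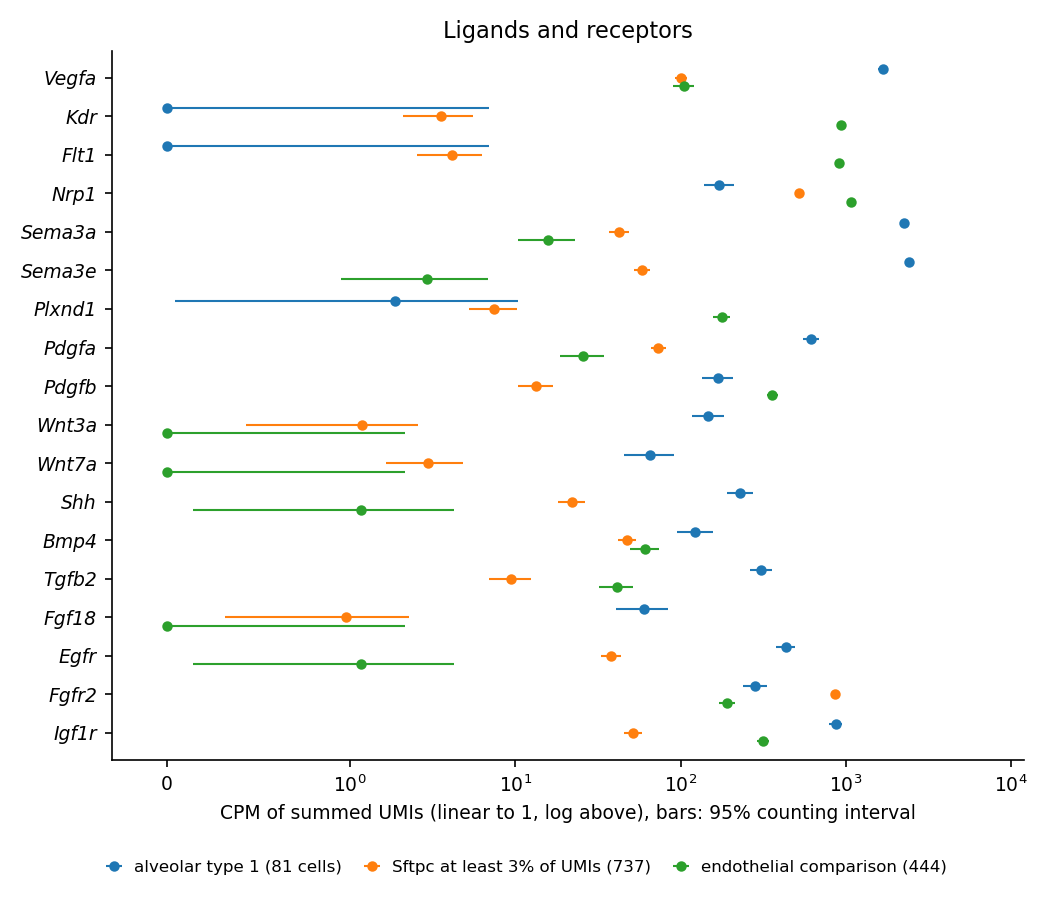
Levels of 18 ligand and receptor genes in CPM of summed UMIs (horizontal axis, linear to 1 and logarithmic above) in the members, the Sftpc cells and the endothelial cells, with bars for the 95% counting interval. Vegfa, Sema3a and Sema3e are highest in the members, and Kdr, Flt1 and Plxnd1 in the endothelial cells.

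Among growth factor receptors, 6 of 25 were at least 4-fold higher in the members than in the Sftpc cells and 3 of 25 at least 4-fold lower, beside 9.59% and 6.62% of all genes. Egfr, which binds amphiregulin and HB-EGF, had 434 CPM, with 472 CPM in run 1, 512 in run 6 and 190.03 in the other 6 runs together (299 without the 2 unmarked cells), against 38. Igf1r had 866 against 51.5, Nrp2 194 against 26.2, and the Wnt receptor Fzd2 179 against 30.4. Fgfr2, the receptor needed for type 2 cells, was lower in the members, at 283 CPM against 862. Met, the receptor of hepatocyte growth factor, had 5.59 against 135.

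The epithelial sodium channel, which drives the clearance of fluid from the air space, was found with all 3 subunits in the members. Scnn1a had 457 CPM against 48.2 in the Sftpc cells, Scnn1b 283 against 5.88, and Scnn1g 475 against 8.62. Scnn1g had 588 CPM in run 1, 419 in run 6 and 310.1 in the other 6 runs together (515 without the 2 unmarked cells), and Scnn1b had 382 CPM in run 1, 217 in run 6 and 170.03 in the other 6 runs together (283 without the 2 unmarked cells). Both lie on chromosome 7 in the same direction, 96562 bases apart, Scnn1g at chr7:121734479-121768475 and Scnn1b at chr7:121865038-121918514. With cells thinned to 1500 UMIs, a Scnn1g UMI was found in 50.6% of the members, 1.26% of the Sftpc cells and 0% of the endothelial cells (exact upper bound 0.939%). Atp1b1, a beta subunit of the sodium pump, had 155 CPM in the members and 560.4 in the Sftpc cells. Channels that carry chloride were split. Ano1 had 652 CPM against 54.1 in the Sftpc cells, while Cftr had 28 against 245 and Slc26a9 14.9 against 147. Over the whole list of water and ion transport, 7 of 19 genes were at least 4-fold higher and 4 of 20 at least 4-fold lower than in the Sftpc cells, beside 9.59% and 6.62% of all genes, and the median log2 ratio was -0.12. Piezo2, a stretch-gated channel, had 0 UMIs in the members and 864 CPM in the endothelial cells, and Piezo1 had 147 and 195.

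Of the transcription factors of the lung epithelium, 2 of 30 were at least 4-fold higher in the members than in the Sftpc cells, beside 9.59% of all genes, and 7 of 33 at least 4-fold lower, beside 6.62%. Nkx2-1, which is needed for lung identity and binds at genes of both cell types, had 481 CPM in the members and 395 in the Sftpc cells. The 2 at least 4-fold higher were Hmga2, a chromatin protein, at 179 against 27, and Myrf at 46.6 against 2.15. Both were named after their values were seen in the list. Those lower included Etv5, which holds type 2 identity, at 31.7 against 565 (16.2 without the 3 members that lack the markers), Cebpa at 1.86 against 194, and Id2 at 67.1 against 460.3. Sox9, of the embryonic tip, had 5.59 CPM in the members and 63.9 in the Sftpc cells. Klf6 was higher in the members at 704 against 248.

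Hippo signalling reads cell stretch and shape through YAP and TAZ, which act with TEAD factors and are known to hold type 1 identity. In all, 10 of 28 genes of the pathway list were at least 4-fold higher in the members than in the Sftpc cells and 0 of 24 at least 4-fold lower, beside 9.59% and 6.62% of all genes, with a median log2 ratio of 1.24. Tead1 had 1196 CPM, with 1204 CPM in run 1, 1189.9 in run 6 and 1190.2 in the other 6 runs together, against 106 in the Sftpc cells, and was found in 76 members. Wwtr1, which encodes TAZ, had 329.8 against 113, while Yap1 had 83.9 against 78.3. Among its target genes, Ccn2 and Ccn1 were high in the members. Ccn2 had 568 CPM, with 669.7 CPM in run 1, 486 in run 6 and 480.1 in the other 6 runs together (781 without the 2 unmarked cells), a ratio of 65.9-fold (48 to 92.7) to the Sftpc cells, and Ccn1 had 732, with 969.6 CPM in run 1, 554 in run 6 and 500.1 in the other 6 runs together (831 without the 2 unmarked cells), a ratio of 18.2-fold (15.4 to 21.7). In the endothelial cells Ccn2 had 49.7 CPM and Ccn1 180.1. Ankrd1, another target, had 18.6 CPM from 7 members and 0 UMIs in the Sftpc cells. Wwc1, a brake of the pathway, had 954 against 249.9, and the kinase gene Lats2 169.6 against 25.9. Axl, a target in other cells, had 1.86 CPM in the members.

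Genes of surfactant and type 2 cells had the lowest median of the 17 lists against the Sftpc cells. Sftpc chose both groups and is left out here, and of the rest 21 of 23 were at least 4-fold lower, beside 6.62% of all genes, with a median log2 ratio of -5.00. Summed without Sftpc, the list had 1996 CPM in the members and 49409 in the Sftpc cells. Of the 1071 such UMIs of the members, 439 lay in the 2 members with most Sftpc, and without these 2 the sum was 1218 CPM. The median member held 0.124% of its UMIs in these genes, and the median Sftpc cell 4.51%. Sftpa1 had 108 CPM in the members, 5.78 without those 2, against 8418. Slc34a2, a phosphate transporter of type 2 cells, had 63.4, or 5.78 without them, against 3432. Lamp3, of the lamellar bodies, had 14.9 against 1469, from 2 members. The 2 genes of the list that were not 4-fold lower were Ctsh, a lysosomal protease, at 509 CPM in 65 members against 839, and Acly at 42.9 against 134. Abca3, the lipid pump of lamellar bodies, had 129 CPM in 39 members against 856. Among the genes with the lowest ratios were Lyz1 at 1.86 against 1938, S100g, a calcium-binding protein, at 5.59 against 1189, and the lipid desaturase Scd1 at 7.45 against 895. The lowest against all other cells were leukocyte genes, led by Coro1a, an actin regulator of leukocytes, with a log2 ratio of -7.84 (-10.89 to -5.99).

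Genes known from the transitional state between type 2 and type 1 cells after injury were mixed, with 4 of 14 at least 4-fold higher and 2 of 16 at least 4-fold lower than in the Sftpc cells, beside 9.59% and 6.62% of all genes. Krt8 had 246 CPM against 123, Krt18 237 against 135, and Krt19 302 against 39. Krt7, a keratin also found in type 1 cells, had 689 against 66. All 4 keratins were higher in the members of run 1 than in those of run 6: Krt8 had 345 and 135 CPM, Krt18 345 and 135, Krt19 477 and 166, and Krt7 1064 and 383. Without run 1 they stood at 164, 147, 157 and 378 CPM in that order, and within run 6 the log2 ratio of Krt18 to the Sftpc cells was -0.19. Cdkn2b, an inhibitor of the cell cycle, had 186 CPM in 40 members against 2.35, with 255 CPM in run 1, 139.7 in run 6 and 110.02 in the other 6 runs together (183 without the 2 unmarked cells), while its neighbour Cdkn2a was at 0 and Cdkn1a had 78.3 against 74.6, or 34.1 without run 1. Cldn4 and Sfn, both used as markers of that state, had 9.32 and 20.5 CPM in the members, and Krt17 and Gdf15 were at 0.

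Of the genes that respond to oxygen and oxidants, 1 of 19 were at least 4-fold higher and 7 of 22 at least 4-fold lower than in the Sftpc cells, beside 9.59% and 6.62% of all genes, with a median log2 ratio of -1.03. Against the endothelial cells the counts were 2 of 19 and 2 of 18, beside 11.3% and 13.7%, with a median of 0.51. Mt1, a metallothionein, had 39.1 CPM in the members and 965 in the Sftpc cells, Gclc, of glutathione synthesis, 76.4 and 509, and Cat, catalase, 50.3 and 349. Prdx6, a peroxiredoxin with phospholipase activity, ran the other way with 367 against 152. These values pool air and hyperoxia and say nothing of the response to oxygen. Of the interferon and MHC class I genes, 3 of 13 were at least 4-fold higher than in the Sftpc cells and 1 of 10 at least 4-fold lower, beside 9.59% and 6.62% of all genes. Against the endothelial cells 10 of 17 were at least 4-fold lower, beside 13.7%. Ifit2 had 42.9 CPM in 16 members and Ifit3 29.8 in 12, whereas Ifitm3 had 3.73 CPM in the members and 737 in the endothelial cells. Among inflammatory mediators, Icam1, an adhesion molecule for leukocytes, had 542 CPM in 70 members against 327 in the Sftpc cells, and Il6, Tnf, Cxcl1 and Cxcl10 were at 0.

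Of the cell cycle genes, 2 of 15 were at least 4-fold lower in the members than in the Sftpc cells, beside 6.62% of all genes, and 5 of 22 than in the endothelial cells, beside 13.7%. Mki67 and Top2a each had a UMI in 6 members, and no gene of the cell cycle list was at least 4-fold higher in the members than in any of the 3 comparison groups. Summed over the list, the members had 846 CPM, the Sftpc cells 1183 and the endothelial cells 2056. The sum was 637 CPM in run 1, 574 in run 6 and 1880.3 in the other 6 runs, which lies above the Sftpc cells. Of the 454 cell cycle UMIs of the members, 71 lay in the deepest member (run 4) and 64 in the run 7 member with 216 Sftpc UMIs. Without these 2 members the sum was 643 CPM. Immediate early genes, which also respond to tissue handling, summed with heat shock genes to 6572 CPM in the members, 6343 in the Sftpc cells and 9257 in the endothelial cells. Of the cytoskeleton genes, 9 of 45 were at least 4-fold higher and 1 of 44 at least 4-fold lower than in the Sftpc cells, beside 9.59% and 6.62% of all genes. S100a6, a calcium-binding protein, had 2509.9 CPM, or 1555 without run 1, against 118. Myh14, a non-muscle myosin, had 822 against 160.2, and Sptbn1, a spectrin, 1561 against 307. Ank3, ankyrin G, was lower in the members at 240.4 against 2499.

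Some genes better known from other cells were found in the members. Msln, mesothelin, the marker of the pleural lining, had 203 CPM in 44 members, with 325 CPM in run 1, 129 in run 6 and 50.01 in the other 6 runs together (83.1 without the 2 unmarked cells), against 2.15 in the Sftpc cells. The mesothelial genes Upk3b, Wt1, Lrrn4 and Upk1b had 0 UMIs in the members, so 4 of the 6 genes of the mesothelial list were at 0. The remaining gene, Gpm6a, had at least 20 CPM in the members. Like Msln, it was at least 4-fold higher there than in all other cells and in the Sftpc cells. Csf1r, the receptor of macrophage colony stimulating factor, had 76.4 CPM in 31 members against 16.5 in the Sftpc cells and 217 in all other cells. In UMIs, the members held 41 of Csf1r and 13 of Tyrobp, while all other cells held 16607 and 142174, and the Sftpc cells 84 and 447. The ratio of Csf1r to Tyrobp was thus 3.15 in the members, 0.117 in all other cells and 0.188 in the Sftpc cells. The rule allowed 0 Ptprc UMIs in the members but set no Ptprc limit in those 2 groups. Cells left out for Ptprc alone had more Tyrobp than the members. Their Csf1r is not reported here, so how the rule bears on this ratio was not tested. The endothelial cells, under the same Ptprc limit, held 6 and 33 UMIs, a ratio of 0.182. The source of Csf1r in the members was not tested. With cells thinned to 1500 UMIs, a Csf1r UMI was found in 7.41% of the members, 3.23% of the Sftpc cells and 0.512% of the endothelial cells. Esam, an adhesion molecule of endothelial cells and platelets, had 83.9 CPM in 34 members, while Cdh5 had 1.86 CPM and Tie1 was at 0.

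The members of run 1 and of run 6 were alike in most genes. Of 2382 genes with at least 100 CPM in the members of either run, 2021, or 84.8%, lay within 2-fold of each other. In run 1, 17 genes (0.714%) were at least 4-fold higher, and in run 6, 11 genes (0.462%). Among the 17 were Dusp1, an early-response phosphatase, at 768 against 145 CPM. Genes of type 2 cells made up much of the 11 in run 6: Sftpb had 233 CPM against 8.22, Napsa 103 against 20.5, and Cxcl15 135 against 8.22. Sftpc, limited by the rule in both, had 1412 against 144. The Sftpc and Sftpb values of run 6 rest mostly on a single member, which held 240 of the 273 Sftpc UMIs and 42 of the 45 Sftpb UMIs of that run. Without it, run 6 had 179 CPM of Sftpc and 16.3 of Sftpb, Napsa had 43.4 and Cxcl15 43.4. The genes at least 4-fold higher in run 6 were then 4 (Eda, Ift80, Pde7b and Unc5d), named here after their values were seen, and 17 were at least 4-fold higher in run 1. With all members, Ager had 7375 CPM in run 1 and 5132 in run 6, and Col4a3 2338 and 2344.

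**Figure D5:**
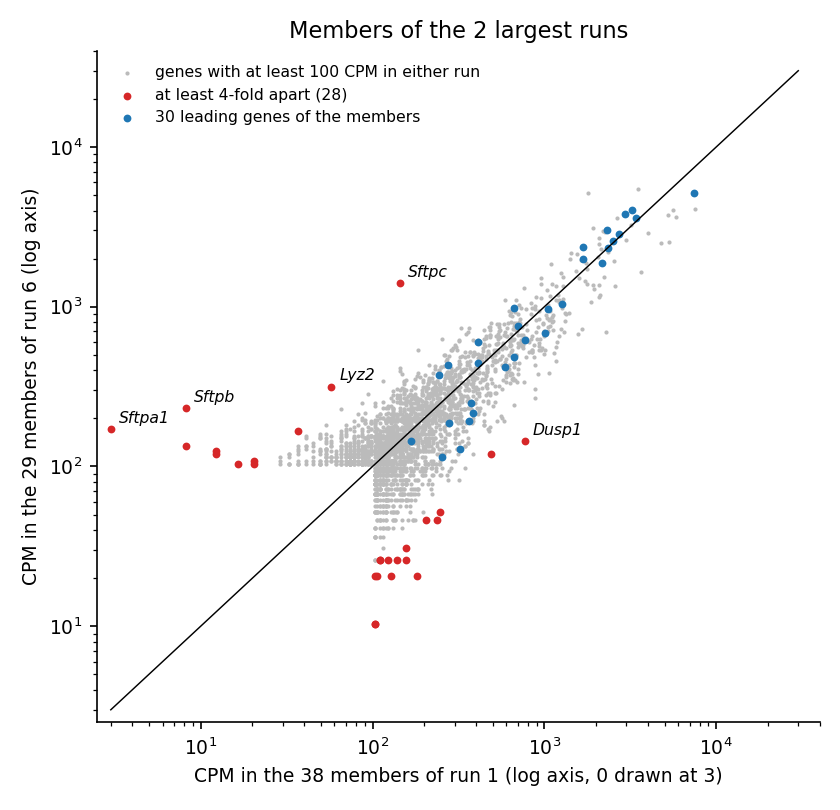
CPM of 2382 genes in the 38 members of run 1 (horizontal axis) and the 29 members of run 6 (vertical axis), both logarithmic with 0 drawn at 3, the line marking equal levels. The 30 leading genes of the members lie near the line, and the 28 genes at least 4-fold apart include Sftpb, Sftpa1 and Sftpc on the run 6 side, where 1 member holds most of their UMIs, and Dusp1 on the run 1 side.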

How the data were processed

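Per the labels' protocols, a droplet kit for transcript 3' ends was used. The deposited UMI counts were unscaled whole numbers for 32285 genes, 11806 cells and 77020720 UMIs. The submitters' processing notes list Cell Ranger 1.3.1 and mm10. Strand and intron settings were not given in the sources used here. Per cell, the fewest genes were 800 and the highest mitochondrial share was 9.99%, so cells had been filtered before deposit. No cell was removed further and free RNA was not subtracted. Counts were summed per group and scaled to CPM. Ratios carry exact 95% conditional Poisson intervals, and shares carry exact binomial ones, which cover counting error only. A gene at 0 in a group enters a ratio at 3 counts over that group, so the ratio is a bound. The ratio limit was 4-fold, with at least 20 CPM in the higher group. Cells were thinned to 1500 UMIs for shares. Thinning left out 0 members, 25 Sftpc cells and 53 endothelial cells. Unthinned, an Ager UMI was found in 95.1%, 84.8% and 3.60% of these groups. Scrublet in scanpy 1.11.5 was run per run of barcodes. Its automatic threshold marked 58 cells, or 0.491%, and was taken to have failed, so 193 cells were marked at 0.8% per 1000 cells of a run. The planned edgeR test of hyperoxia against air was not run, since no cell could be tied to a library. Named genes were those of the lists, the 30 and 20 with the largest ratios and the 10 with the lowest against each group, among genes with at least 100 CPM and, for the largest ratios, a UMI in at least 50% of the members and a higher level in each run with at least 10 members. Some genes of the lists are counted but not reported here by name. The members and lists were chosen with earlier results of these data known. The ratio code was tested on simulated counts. Gene positions come from the GENCODE annotation and the sequence from promoter windows, both on GRCm38.p6.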

Additional observations from a re-analysis of the deposited data

How the results depend on the processing

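The values rest on 81 cells, 67 of them from runs 1 and 6, and cover counting error only. No paired analysis was possible because no cell could be tied to a library, and the test of hyperoxia against air, with its replicate block, was not run. The share of members was 0.686%. It was 2.42% within run 1 and 1.69% within run 6, and leaving out each run in turn gave 0.420% (without run 1) to 0.887% (without run 7). With at least 100 CPM in place of 20, the counts of genes past 4-fold were 496 higher and 421 lower against all other cells, 304 and 145 against the Sftpc cells, and 355 higher against the endothelial cells. With no minimum, 2323, 1668 and 1211 genes were higher against the 3 groups. Without each run in turn, the counts ran from 1031 to 1260 higher and 979 to 1152 lower against all other cells, from 633 to 845 and 392 to 421 against the Sftpc cells, and from 775 to 908 higher against the endothelial cells. Scaled to the median ratio, they were 938 and 1244, 493 and 522, and 785. The other settings tried for these counts (limits on Rtkn2 and Sftpc, Ager and Hopx required, doublets left out, mean per cell) stayed within 1.5 times. Alternatives chosen after seeing the data left out the 3 members without Ager, Hopx and Akap5, or the Sftpc cells with Ptprc, or kept run 1 or run 6 alone, and these counts stayed within 1.5 times there too. For 356 genes, 712 ratios were recomputed. Of the 369 that were at least 4-fold, 4 (Eln against both groups, Fxyd5 and Gstm1) changed direction in 6 of 6850 alternative values. Of the 343 under 4-fold, 109 changed direction in 323 of 6320 values. Among those named were Cdh5 against the Sftpc cells (-1.39, and 0.54 within run 6), Cldn5 (-1.70, and 0.97 without run 7) and Cdkn1a (0.07, and -1.17 without run 1). The log2 ratio of Eln was 1.71 against all other cells and 3.12 against the Sftpc cells with Rtkn2 at least 2, and against the Sftpc cells 1.54 within run 6 and, leaving out each run in turn, -3.10 (without run 5) to 0.80 (without run 7). Fxyd5 (0.16) and Gstm1 (1.54) turned against the Sftpc cells within run 6. Without run 1, 61 genes of the lists with at least 20 CPM, out of 370, moved by over 1.5 times in level. The values given without single members, and the counts of lists without run 1 or run 6, were also chosen after seeing the data. The cause was not tested.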

Other observations

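Genes outside the lists that had large ratios to the Sftpc cells, by the same rule of size, were a mixed group. Rnf150, a membrane ubiquitin ligase, had 363 CPM in the members, with 292 CPM in run 1, 538 in run 6 and 200.04 in the other 6 runs together (332 without the 2 unmarked cells), against 5.09 in the Sftpc cells and 1.17 in the endothelial cells. Tmem108, a transmembrane protein, had 259 against 3.92, and Ust, a uronyl sulfotransferase that modifies proteoglycans, 306 against 5.09. Stxbp6, a regulator of vesicle fusion, had 244 CPM in the members, 4.31 in the Sftpc cells and 545 in the endothelial cells. Pxdn, peroxidasin, which crosslinks collagen IV, had 237, 4.50 and 188 CPM in the same order.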
